A study of Homo sapiens with 4 samples.

Results

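The 56 genes described here are cell cycle genes chosen by symbol, and all 56 were found among the 36601 features of each deposited count matrix. They encode cyclins and the CDK1 switch (9 genes), E2F factors (2), the licensing factors and the replicative helicase (10), enzymes and chromatin proteins of DNA synthesis (12), mitotic kinases and checkpoint proteins (7), kinetochore and centromere proteins (5), spindle and cytokinesis proteins (7) and mitotic chromosome proteins (4). Single-nucleus RNA sequencing was performed on enteric ganglioids, free-floating clumps in which enteric neurons form from their precursors, grown from the established human pluripotent stem cell line H9. The 2 control samples and the 2 samples given PP121, a small molecule that blocks several tyrosine kinases, at 2 µM from day 15 to day 20 were otherwise grown alike, with no genetic change in either group. Each sample is 1 differentiation of the same line with many ganglioids pooled. The spread between samples of a group is thus that between differentiations together with that between the days given next. By the deposited annotation, both samples numbered 1 come from day 42 and both numbered 2 from day 38, while the study's methods give a single day for all. The annotation's own sample names match the labels for the PP121 samples but not for the controls, where one carries the other replicate number and one also another stage. Samples are named here by their labels. The replicate block, the within-day differences and the day comparison rest on the annotated days, and what a mix-up of the controls would do to them was not tested.

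The eukaryotic cell cycle copies DNA in S phase and separates the copies in mitosis. Licensing loads the MCM helicase onto origins in G1, E2F factors switch on replication genes at the start of S phase, and a later wave of genes builds the spindle and the kinetochores in G2 and M. Neurons of the enteric nervous system have left the cycle, whereas their neural crest-derived precursors divide. MKI67 was among the genes with which the study recognised progenitors, so its level in those classes is part of how they were named.

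Classes are those of the deposited annotation, which assigned 6557 nuclei to enteric neurons, 2892 to Progenitor 1, 3800 to Progenitor 2 and the rest to mesenchymal, epithelial and unknown nuclei. Annotated nuclei numbered 2912 to 4587 per sample, with a median of 6289 to 7071 UMIs (unique molecular identifiers, counted molecules) per nucleus and 23348045 to 34123759 UMIs per sample. Any pair of samples shared at most 8 nucleus barcodes. The 11 neuron markers summed to 7822 to 10785 CPM (UMIs per 1000000 of the class and sample) in the neurons, 974 to 1424 in Progenitor 1 and 1581 to 2101 in Progenitor 2. The 6 progenitor markers summed to 414 to 459, 640 to 930 and 1864 to 2405 CPM in the same classes, so that Progenitor 1 was nearer to the neurons on this list. The 7 markers of enteric glia and their SOX10-expressing precursors summed to between 9.20 and 35.6 CPM in all 3 classes. The annotation left out 372 and 196 nuclei inside the study's own quality limits in control replicates 1 and 2, and 0 in either PP121 sample.

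Levels are given as CPM, in which the UMIs of a gene in all nuclei of 1 class and sample are scaled to a total of 1000000 for those nuclei. They are compared between classes for the same gene, since levels of different genes also depend on transcript and intron length. The classes are clusters of these nuclei, so that differences between classes are described without a test. A lower level in summed nuclei can mean fewer nuclei with the transcript or less of it per nucleus, which are taken apart further on.

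Among the 3 main classes, Progenitor 2 had the highest summed levels of the cycle genes. Against neurons, 49 of the 56 genes were higher in Progenitor 2 in all 4 samples, 0 were lower in all 4, and the median difference was 1.48 on the log2 scale. Such counts between classes, here and below, were not made over all genes, so they have no background to be read against. The 27 mitotic genes other than HMGB2 summed to 918, 1037, 1096 and 1303 CPM in Progenitor 2 of control replicates 1 and 2 and PP121 replicates 1 and 2, an order kept wherever 4 values are listed. In neurons the same sum was 272, 369, 310 and 379 CPM, and in Progenitor 1 it was 588, 485, 540 and 788 CPM. The ranges of the 3 classes did not overlap. The 25 replication genes other than POLA1 summed to 496, 589, 699 and 874 CPM in Progenitor 2, 318, 273, 345 and 385 CPM in Progenitor 1 and 243, 250, 244 and 322 CPM in neurons, where Progenitor 1 and neurons did overlap. Replication genes thus separated Progenitor 1 from neurons less than mitotic genes did, with a median log2 difference of 0.24 against 0.71. HMGB2 and POLA1 were left out of the sums because each made up a large part of its list, POLA1 at 224 to 317 CPM in neurons alone.

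**Figure D1:**
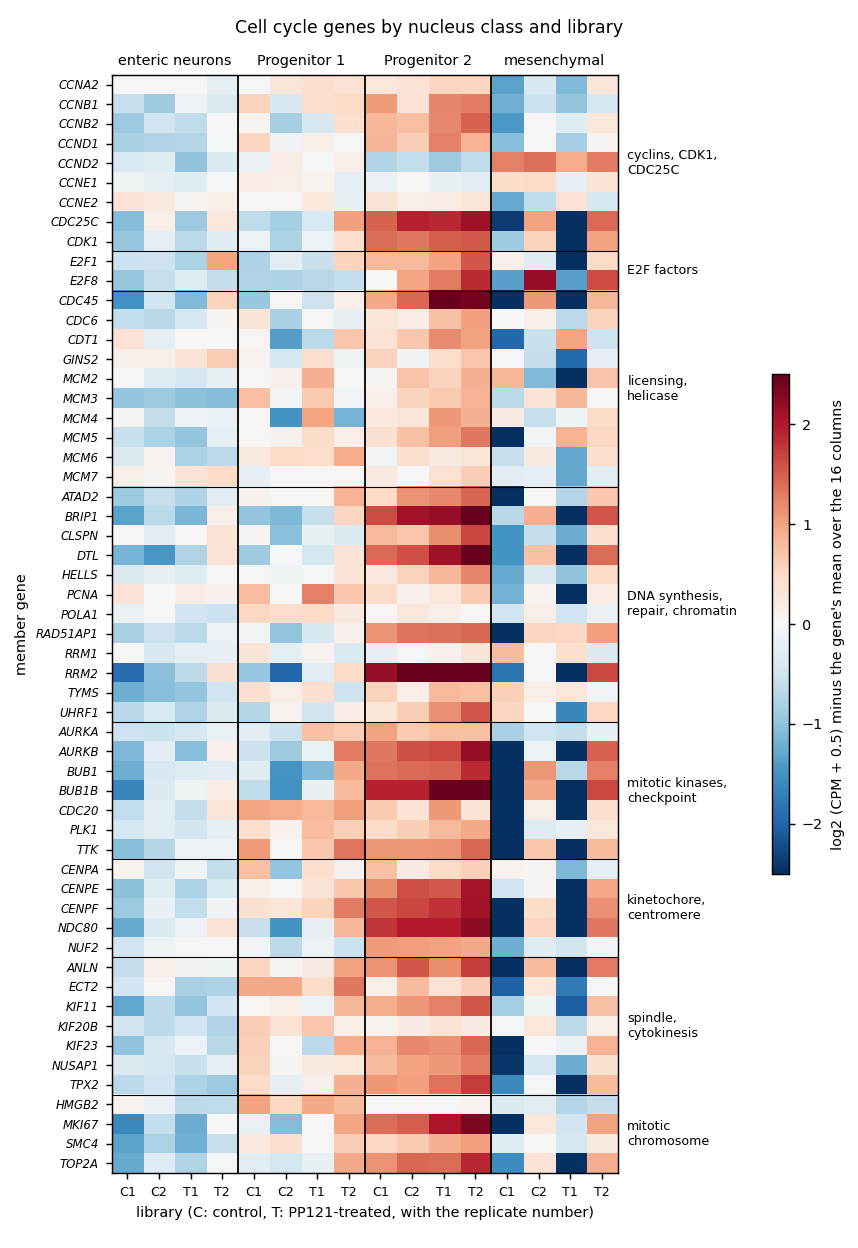
Level of each of the 56 genes (rows, grouped by role) in 4 classes of nuclei and 4 libraries (columns), as log2 of CPM plus 0.5 minus the mean of the gene over the 16 columns. Most rows are red across the Progenitor 2 columns, CCND2 is reddest in the mesenchymal columns, and the replicate 1 mesenchymal columns, with 40 and 33 nuclei, are noisy.

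**Figure D2:**
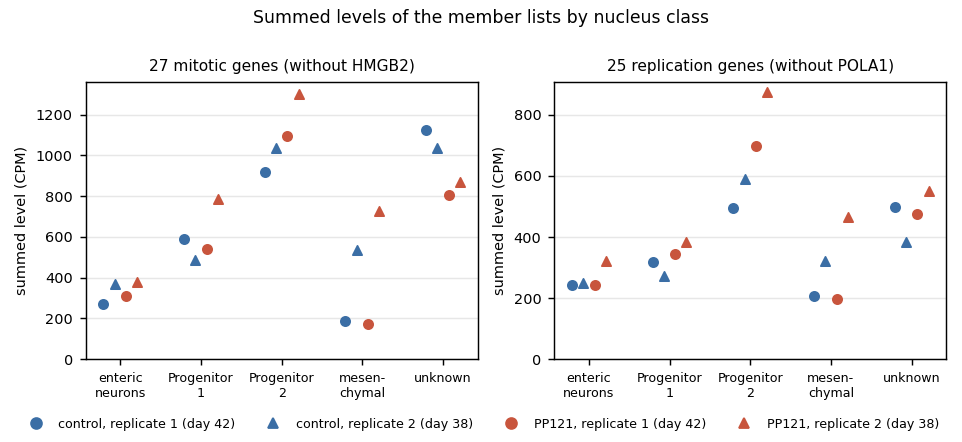
Summed CPM of 27 mitotic genes (left) and 25 replication genes (right) in each class and library, with control in blue, PP121 in red, circles for replicate 1 (day 42) and triangles for replicate 2 (day 38). Neurons sit lowest of the 3 main classes, at 272 to 379 CPM for the mitotic genes, and Progenitor 2 highest, at 918 to 1303 CPM.

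Among the cyclins and their switch, CDC25C, the phosphatase that activates CDK1 at mitotic entry, differed most between Progenitor 2 and neurons. It stood at 47.7, 65.9, 63.1 and 74.6 CPM in Progenitor 2 against 7.65, 18.8, 8.73 and 20.6 CPM in neurons, a log2 difference of 2.24 ± 0.51 (SD, n = 4 samples). CCND2, a D-type cyclin that couples growth signals to CDK4 and CDK6, was the lowest of this list. Its level was 30.2, 33.3, 27 and 33.0 CPM in Progenitor 2 and 39.5, 41.4, 25.4 and 39.6 CPM in neurons, so the ranges overlapped and the log2 difference was -0.22 ± 0.21. CCND2 stood at 123, 133, 97.6 and 124 CPM in mesenchymal nuclei and at 224, 274, 108 and 201 CPM in the 9 to 37 epithelial nuclei per sample, above neurons and both progenitor classes in every sample. CCND1, the other D-type cyclin, was instead higher in Progenitor 2, at 22.6, 19.1, 30.4 and 23.0 CPM against 6.86, 7.12, 7.25 and 11.9 CPM in neurons. The E-type cyclins CCNE1 and CCNE2, which drive entry into S phase, hardly differed between Progenitor 2 and neurons, with log2 differences of 0.03 ± 0.22 and 0.04 ± 0.11.

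Replication genes ranged from the largest difference of all to almost none. RRM2, the S-phase subunit of ribonucleotide reductase, stood at 52.6, 67.2, 75.4 and 107 CPM in Progenitor 2 against 2.64, 5.14, 6.89 and 14.6 CPM in neurons, a log2 difference of 3.46 ± 0.52. PCNA, the sliding clamp of the polymerases, was the lowest of the DNA synthesis genes at 0.22 ± 0.22, with 9.84, 7.59, 8.70 and 11.4 CPM in Progenitor 2 and 9.02, 7.03, 8.02 and 7.65 CPM in neurons. Among licensing genes CDC45, which is part of the active helicase, differed by 2.49 ± 0.87 and MCM7, a subunit of the helicase ring, by 0.03 ± 0.08. The MCM subunits did not move as a block, since MCM3 differed by 1.55 ± 0.37, MCM5 by 1.51 ± 0.44 and MCM2 by 0.81 ± 0.46 over the same nuclei. E2F8, a repressor of the family, differed by 1.65 ± 0.62 from levels of 0.158 to 0.535 CPM in neurons, and the activator E2F1 by 1.26 ± 0.51.

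All 7 mitotic kinase and checkpoint genes, all 5 kinetochore genes and all 7 spindle genes were higher in Progenitor 2 than in neurons in every sample. In these lists the extremes were BUB1B (2.69 ± 0.59), a kinase-like protein of the spindle checkpoint, and CDC20 (0.90 ± 0.73), the activator of the anaphase-promoting complex. At the kinetochore they were NDC80 (2.35 ± 0.50), which binds microtubules, and CENPA (0.79 ± 0.28), the centromeric histone. On the spindle they were the motor KIF11 (2.06 ± 0.24) and the kinesin KIF20B (0.80 ± 0.18). MKI67, which coats mitotic chromosomes, differed by 2.68 ± 0.56, and HMGB2, a chromatin protein, by 0.36 ± 0.38.

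Progenitor 1 resembled Progenitor 2 in part of the list only. It exceeded neurons in all 4 samples for 22 of 56 genes and was below them for 1, MCM7, with a median log2 difference of 0.50. Neither this count nor those against Progenitor 2 were made over all genes. Spindle genes stood out most, with a median of 1.04 and ECT2, which positions the cleavage furrow, at 1.43. ECT2 was 90.5, 91.6, 64.9 and 118 CPM in Progenitor 1, above its 52.2, 81.8, 60.3 and 72.1 CPM in Progenitor 2. Progenitor 2 was below Progenitor 1 in all 4 samples for ECT2, CCND2, CCNE1, MCM6, POLA1 and HMGB2, and above it in all 4 for 42 genes. BUB1B (0.09 ± 0.93) and RRM2 (0.14 ± 0.78) were above their neuron level in some samples of Progenitor 1 and below it in others. Median depth was 4854 to 5954 UMIs per nucleus in Progenitor 1 and 6242 to 6706 in Progenitor 2.

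To see whether these levels were spread over the nuclei or held by few of them, each nucleus was thinned to 2000 UMIs. For every gene, nuclei with UMIs of at least 3 other mitotic genes of the set were then counted as rich. In Progenitor 2, 13.9% to 15.1% of 3776 nuclei were rich, depending on the gene left out. Those nuclei held 91.9% of the BUB1 UMIs (91 of 99), 90.8% of NDC80, 89.5% of BUB1B, 87.7% of CDC25C, 82.3% of MKI67 and 79.6% of TOP2A, the topoisomerase that untangles chromosomes. At the other end were CCND2 with 10.6% and CCND1 with 15.8%, so that CCND1 was close to the share of rich nuclei and CCND2 below it. CCNE2 (16%), MCM6 (15.9%), POLA1 (23.4%) and PCNA (24.7%) were also spread over the class. NUF2, a partner of NDC80 in the same kinetochore complex, had 30.4% of 710 UMIs in rich nuclei, and the mitotic genes CENPA, CCNB2 and HMGB2 were also below the 50.8% of CCNA2. These are descriptions, as all genes were counted in the same nuclei.

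**Figure D3:**
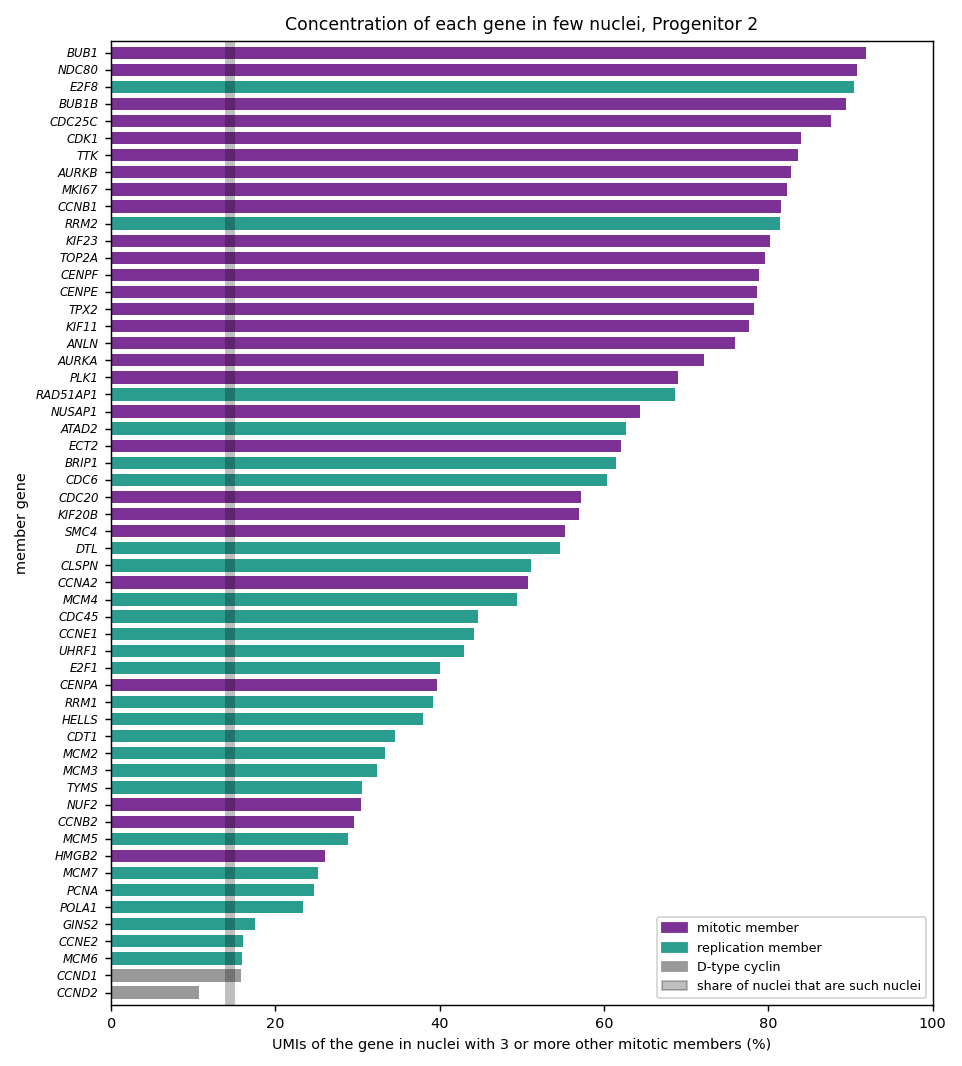
Percent of the UMIs of each gene (bars) that lay in nuclei with UMIs of at least 3 other mitotic genes, in 3776 nuclei of Progenitor 2 thinned to 2000 UMIs, with mitotic genes in purple, replication genes in green and D-type cyclins in grey. The grey band marks the 13.9% to 15.1% of nuclei that were rich; bars run from 10.6% for CCND2 to 91.9% for BUB1.

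In Progenitor 1, 7.60% to 9.91% of 2857 nuclei were rich, and they held 77.8% of CDC25C (63 of 81 UMIs), 65.3% of TOP2A and 63.5% of MKI67. CCNA2, the cyclin of S phase and G2, was not concentrated there, with 4 of 57 UMIs (7.02%), against 33 of 65 (50.8%) in Progenitor 2. Pairs of genes showed the same clustering. Of Progenitor 2 nuclei with a MKI67 UMI, 53.1% (exact binomial 95% interval 45.8 to 60.3%) also held TOP2A, against 7.12% (6.30 to 8.01%) of those without. Among neurons only 37 of 6536 thinned nuclei held MKI67, yet 45.9% of them (29.5 to 63.1%) also held TOP2A, against 1.85% (1.53 to 2.20%) of the others. The 169 rich nuclei among the neurons had 53.3 neuron marker UMIs per 10000 against 93.9 in the other neurons, 7.26 against 4.36 progenitor marker UMIs, and a median of 8731 against 7480 UMIs. That difference in depth was not shared by all samples, since it was 6691 against 7373 UMIs in control replicate 1 and 12712 against 7152 in PP121 replicate 1. Whether they are dividing nuclei, nuclei of another class or doublets was not tested. Intervals on shares cover counting error only.

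The unknown class, 60 to 211 nuclei per sample, had mitotic sums of 1125, 1034, 804 and 870 CPM. Against Progenitor 2 of the same sample this was higher in control replicate 1, similar in control replicate 2 and lower in both PP121 replicates. Both PP121 values of the unknown class lay below both control values, the reverse of Progenitor 2. The 6 markers of ciliated cells summed to 326, 276, 922 and 2047 CPM in the unknown class. Mesenchymal nuclei of replicate 2, 408 and 422 in number, had mitotic sums of 535 and 726 CPM, and 5.43% and 10.2% of them held at least 3 mitotic genes after thinning. Replicate 1 had 40 and 33 mesenchymal nuclei, and 0 of them did, which allows shares of up to 7.5% and 9.09%.

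Promoters of the set were examined because the replication and the mitotic genes are switched on by different proteins. Replication genes are classic targets of E2F factors, and mitotic genes of the DREAM and MMB complexes, which bind the cell cycle genes homology region (CHR). RefSeq windows of 250 bases before to 50 after the start (GRCh38.p14) were at hand for 45 members, 24 mitotic and 21 replication genes, and both strands were searched. The CHR core TTTGAA lay in the windows of 19 of 24 mitotic and 2 of 21 replication genes, against 18.2% of 27305 genes. An E2F site, written as TTTCGCGC, TTTGGCGC or TTTCCCGC, lay in 3 of 24 mitotic and 15 of 21 replication genes, against 3.3% of genes. The CCAAT box, the binding site of NF-Y, did not separate them (18 of 24 and 17 of 21, against 39.7%). In mitotic genes the CHR started at a median of 29 bases before the start, and in replication genes the E2F site at 35. A match is a run of letters and does not show binding.

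The 120 bases before the start are printed for the 4 mitotic and 5 replication genes whose change by phase is tested next, with CHR, CCAAT and E2F letters in capitals. Of the exact letters searched, PLK1 and BUB1B hold those of the CHR, and CCNA2 and CCNB1 only those of CCAAT boxes. E2F1, MCM7 and CDT1 hold those of an E2F site, while CCNE1 holds none of the 3 motifs. Variants of these letters were not searched, so a missing match does not show that a site is absent. A site that crosses the start, as in MCM3, is not marked.
CCNA2 (chr4:121823884-121824003, minus strand): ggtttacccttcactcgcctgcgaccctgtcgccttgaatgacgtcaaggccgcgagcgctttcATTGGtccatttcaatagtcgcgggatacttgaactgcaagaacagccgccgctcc
CCNB1 (chr5:69167030-69167149, plus strand): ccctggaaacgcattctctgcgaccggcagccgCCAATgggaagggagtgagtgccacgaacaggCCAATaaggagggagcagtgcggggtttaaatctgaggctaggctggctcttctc
PLK1 (chr16:23678769-23678888, plus strand): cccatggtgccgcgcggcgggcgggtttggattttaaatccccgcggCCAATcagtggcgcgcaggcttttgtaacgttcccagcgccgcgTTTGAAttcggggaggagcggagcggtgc
BUB1B (chr15:40160949-40161068, plus strand): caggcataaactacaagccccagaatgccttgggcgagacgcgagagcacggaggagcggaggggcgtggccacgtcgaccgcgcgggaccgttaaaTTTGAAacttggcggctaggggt
CCNE1 (chr19:29811871-29811990, plus strand): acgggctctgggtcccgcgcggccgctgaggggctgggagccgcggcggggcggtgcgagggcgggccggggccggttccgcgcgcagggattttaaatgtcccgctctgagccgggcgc
E2F1 (chr20:33686386-33686505, minus strand): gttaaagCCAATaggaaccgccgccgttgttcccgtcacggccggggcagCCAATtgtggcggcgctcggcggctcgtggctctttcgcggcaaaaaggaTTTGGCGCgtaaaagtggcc
MCM3 (chr6:52284743-52284862, minus strand): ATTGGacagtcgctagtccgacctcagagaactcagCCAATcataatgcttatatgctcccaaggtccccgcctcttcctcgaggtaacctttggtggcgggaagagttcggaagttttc
MCM7 (chr7:100101398-100101517, minus strand): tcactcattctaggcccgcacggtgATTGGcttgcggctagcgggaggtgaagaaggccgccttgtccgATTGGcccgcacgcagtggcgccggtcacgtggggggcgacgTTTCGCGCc
CDT1 (chr16:88803669-88803788, plus strand): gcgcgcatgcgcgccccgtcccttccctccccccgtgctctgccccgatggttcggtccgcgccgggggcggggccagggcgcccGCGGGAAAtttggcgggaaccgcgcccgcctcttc

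Each nucleus also carries a deposited phase call (G1, S or G2M) made from lists of S and G2M genes that hold 45 of the 56 members. Those 45 had to differ by phase and are given no test. The other 11 were not used for the calls and were compared by phase with the sample as a block, in UMIs summed per sample, class and phase. Over both progenitor classes, 7 of the 11 rose in G2M nuclei against G1 nuclei, where 14.3% of all tested genes were called higher (edgeR quasi-likelihood test, Benjamini-Hochberg adjusted over all genes). The largest rise was that of BUB1B, at 5.38 ± 0.23 (log2 ± SE, adjusted p = 3.93e-14), followed by CCNB1, the mitotic cyclin (3.85 ± 0.23), PLK1, the kinase that drives mitotic entry and spindle assembly (2.48 ± 0.24), and CCNA2 (1.73 ± 0.20). E2F1 (1.15 ± 0.32), CCNE1 (1.02 ± 0.33) and MCM3 (0.83 ± 0.26) rose less. CDT1, the licensing factor degraded in S phase, missed the threshold at 1.10 ± 0.42 (adjusted p = 0.0554). CCND2 (0.25), MCM7 (0.15) and CCND1 (-0.24) were not called either.

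In S nuclei of the progenitors, 6 of the 11 rose against G1, where 4.15% of all genes were called higher. BUB1B had a log2 change of 2.97 ± 0.28, E2F1 of 1.93 ± 0.28 (adjusted p = 5.77e-05), MCM3 of 1.44 ± 0.23, CDT1 of 1.28 ± 0.38 (adjusted p = 0.0353), CCNE1 of 1.08 ± 0.30 and CCNA2 of 0.79 ± 0.20. CCNB1 (0.56) and PLK1 (0.13) were not called in S nuclei, although both rose in G2M nuclei. E2F1, CDT1 and MCM3, which act at the start of replication, had larger estimates in S than in G2M, and BUB1B, CCNB1, PLK1 and CCNA2 larger ones in G2M. The S-to-G2M difference itself was not tested. CCND1 stood at 20.1, 19.0, 23.8 and 20.6 CPM in G1 and 24.3, 13.6, 18.5 and 14.2 CPM in G2M nuclei, so that its ranges overlapped.

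**Figure D4:**
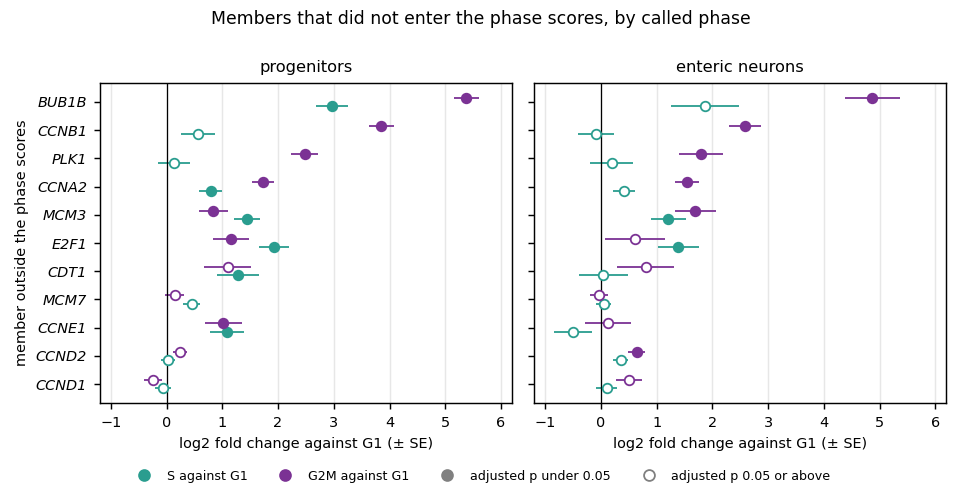
Log2 fold change (± SE) against G1 nuclei of the 11 cell cycle genes outside the phase lists, for S nuclei in green and G2M nuclei in purple, in both progenitor classes together (left) and neurons (right), with filled points for an adjusted p under 0.05 and open points otherwise. In progenitors BUB1B lies farthest right, at 5.38 in G2M and 2.97 in S, and CCND1 and CCND2 lie within 0.25 of 0.

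BUB1B stood at 0.662, 1.88, 1.84 and 2.21 CPM in G1 nuclei of Progenitor 2, at 20.3, 17.0, 26.7 and 36.8 CPM in S nuclei and at 151, 139, 167 and 121 CPM in G2M nuclei. In G2M nuclei of Progenitor 1 it reached 13.7, 5.36, 13.2 and 24.1 CPM, below every G2M value of Progenitor 2. CCNB1 followed the same order, with 84.7, 42.6, 74.4 and 57.0 CPM in G2M nuclei of Progenitor 2 and 21, 8.94, 24.9 and 20.8 CPM in those of Progenitor 1. CCNA2 was not called in Progenitor 1 (0.35 ± 0.33), with 8.06, 8.94, 12.2 and 15 CPM in G2M against 5.23, 11, 10.2 and 8.46 CPM in G1 nuclei. MKI67, which is in the G2M list and so a description only, was at 146, 143, 177 and 151 CPM in G2M nuclei of Progenitor 2, 23.4, 10.7, 28.1 and 41.6 CPM in those of Progenitor 1 and 14.7, 49.5, 30.7 and 43.0 CPM in those of neurons.

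Within Progenitor 2 alone, in fits added after seeing the data, 6 of the 11 rose in G2M (5.7% of all genes) and 6 in S (3.23%). BUB1B reached a log2 change of 6.51 ± 0.24 and CCNB1 of 4.69 ± 0.25 in G2M. Within Progenitor 1, 2 of the 8 that passed the count filter rose in G2M (4.26% of all genes), CCNB1 by 2.23 ± 0.39 and BUB1B by 2.33 ± 0.52. DESeq2 called 0 of these 8 in G2M. Shares of all genes called by DESeq2 are not set beside its counts, here or below, so these have no background to be read against. In S nuclei of Progenitor 1 edgeR called 0 of 8 (0.318% of all genes), with 0 at an unadjusted p under 0.05 and 0 called by DESeq2. The G2M change was larger in Progenitor 2 than in Progenitor 1 for 4 of 10 genes, where 1.17% of all genes were called. The excess was 4.18 ± 0.83 for BUB1B (adjusted p = 0.00369), 2.39 ± 0.53 for CCNB1, 2.19 ± 0.37 for CCNA2 and 2.08 ± 0.51 for PLK1. Both classes are clusters of the same nuclei and these genes could enter the clustering, so this test is not independent of how the classes were made.

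Progenitor 1 had the higher share of nuclei called G2M, at 33.3%, 27.6%, 29.5% and 39.1%, against 14.1%, 15.7%, 20.3% and 25.3% in Progenitor 2. Its G2M nuclei held fewer mitotic transcripts. After thinning to 2000 UMIs, 25.1% of them (225 of 898) had UMIs of at least 3 mitotic members, against 50.1% (355 of 709) in Progenitor 2 and 13.8% (102 of 740) in neurons. In mesenchymal nuclei called G2M of replicate 2 it was 31.9% (15 of 47) in the control and 53.7% (29 of 54) in the PP121 sample. In G1 nuclei the same share was 1.54% in Progenitor 1, 1.44% in Progenitor 2 and 0.449% in neurons. A G2M call thus went with different amounts of mitotic RNA in these classes.

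Neurons showed a smaller set. In G2M neurons 6 of the 11 rose (10.7% of all genes), namely BUB1B (4.87 ± 0.49), CCNB1 (2.59 ± 0.28), PLK1 (1.79 ± 0.40), MCM3 (1.70 ± 0.37), CCNA2 (1.55 ± 0.21) and CCND2 (0.64 ± 0.15, adjusted p = 0.00377). In S neurons E2F1 (1.39 ± 0.37) and MCM3 (1.21 ± 0.32) rose (1.18% of all genes). BUB1B in G2M neurons was at 8.32, 45, 61.3 and 31.6 CPM, against 0.766, 1.86, 0.711 and 1.57 CPM in G1 neurons. Progenitors and neurons were not shown to differ in their G2M change, with 0 of 11 called by edgeR (0.309% of all genes), 2 at an unadjusted p under 0.05 (9.75% of all genes) and 0 by DESeq2.

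Other genes of the pathway followed the phases. Of 87 tested pathway genes outside the phase lists, 53 rose and 1 fell (CDK6, -0.61) in G2M nuclei of the progenitors, where 2520 of all 17636 genes rose and 2338 fell. They included all 14 condensin and cohesin genes, among them the condensin subunit NCAPH at 4.07 ± 0.28. E2F2 at 4.64 ± 0.63 and the replication gene MCM10 at 3.92 ± 0.37 also rose. In S nuclei 34 rose and 1 fell (TFDP2, -0.20), where 732 of all genes rose and 862 fell, with E2F2 at 5.38, MCM10 at 4.34 and MYBL2, a subunit of the MMB complex, at 2.66.

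PP121 had been removed before the nuclei were taken, from day 20 on, and the comparison asks whether the ganglioids still differed. In Progenitor 2 the cycle genes stood higher in the PP121 samples. CDC45 was at 6.04 and 8.70 CPM in controls and 20.4 and 17.1 CPM in PP121 samples, and MKI67 at 26.2 and 28.5 against 41.1 and 50.3 CPM. UHRF1, which maintains DNA methylation behind the fork, was at 14.3 and 17.9 against 26.1 and 35.2 CPM, and DTL, which targets CDT1 for degradation, at 24.4 and 27.9 against 39.7 and 51.6 CPM. In these 4 genes the groups did not overlap. The change was not called in the comparison without the day. None of the members passed edgeR's test there in all nuclei, neurons, both progenitor classes, Progenitor 1 or Progenitor 2, as was true of 0.0% of all genes in each. At an unadjusted p under 0.05 there were 6, 7, 8, 7 and 18 members, beside 4.61%, 12%, 4.75%, 3.86% and 9.43% of all genes. DESeq2 called 0, 0, 0, 0 and 1 (CDC45).

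**Figure D5:**
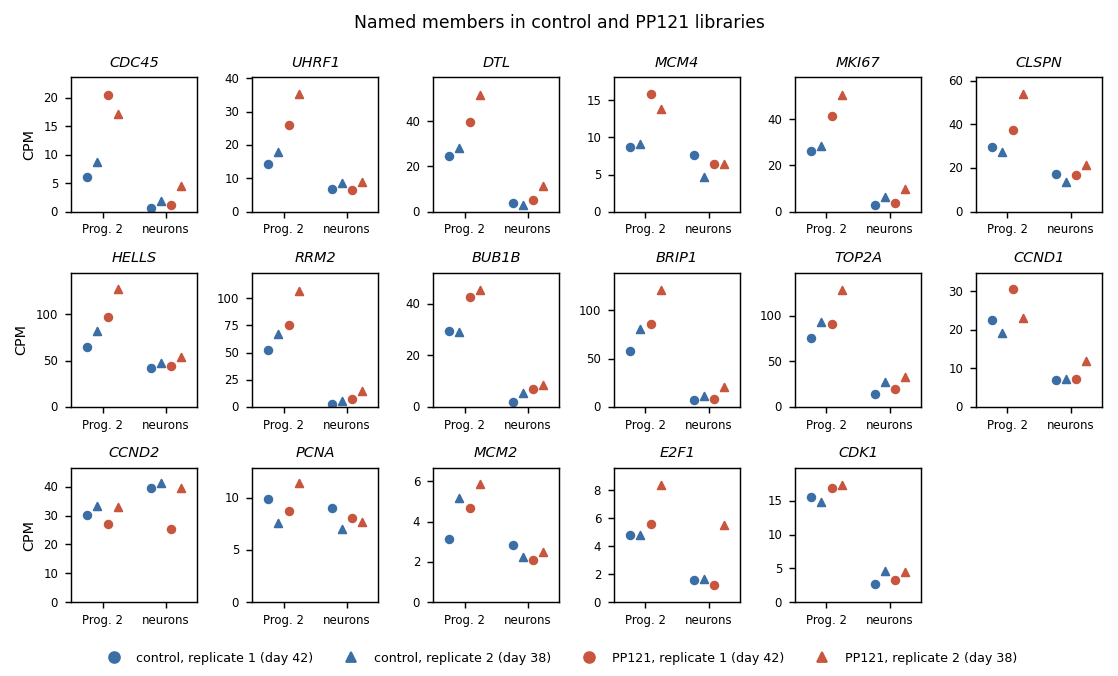
CPM of 17 cell cycle genes (panels, each with its own axis from 0) in Progenitor 2 and neurons of each library, with control in blue, PP121 in red, circles for replicate 1 (day 42) and triangles for replicate 2 (day 38). In Progenitor 2 CDC45 lies at 6.04 and 8.70 CPM in controls and 20.4 and 17.1 CPM in PP121 samples, and CCND2 at 30.2 and 33.3 against 27 and 33.0 CPM.

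Replicate numbers mark the day, so the same test was also run with the replicate block. That fit keeps 1 residual degree of freedom, and its p-values rest on a spread pooled over genes. In Progenitor 2 it called 15 of 56 members higher and 0 lower, where 4.52% of all genes were called. The called members were 7 of the 12 DNA synthesis genes, 2 of 10 licensing genes, 3 of 4 chromosome genes and 1 each of the kinase, kinetochore and spindle lists. CDC45 rose by 1.42 ± 0.23 (adjusted p = 4.58e-06), UHRF1 by 0.95 ± 0.18, DTL by 0.82 ± 0.15, MCM4 by 0.78 ± 0.23 and MKI67 by 0.76 ± 0.15 (adjusted p = 0.000191). CLSPN, which carries the replication checkpoint signal, rose by 0.68 ± 0.15, the chromatin remodeller HELLS by 0.64 ± 0.13, RRM2 by 0.62 ± 0.13, BUB1B by 0.60 ± 0.15 and the repair helicase BRIP1 by 0.60 ± 0.13. TOP2A was the smallest called, at 0.39 ± 0.13 (adjusted p = 0.0435). None of the 9 cyclin genes or 2 E2F factors was called, with CCND1 at 0.39 ± 0.17 (adjusted p = 0.21), CDK1 at 0.20 ± 0.20, CCND2 at -0.06 ± 0.16 and E2F1 at 0.51 ± 0.31. PCNA (0.20 ± 0.26) and MCM2 (0.40 ± 0.34) were not called either. DESeq2 with the replicate block called 2 members, CDC45 and HELLS, a count given without its share of all genes.

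The median change of the 56 members in Progenitor 2 without the block was 0.40 on the log2 scale against -0.01 over all genes, and 51 were positive. Both PP121 values lay above both control values for 36 members (18.2% of all genes) and below them for 2, CCNE1 and NUF2 (21.8%). Within day 42 the median difference was 0.29 and within day 38 it was 0.38, and 42 members were higher on both days. These within-day values were not computed over all genes, so the count of 42 has no background to be read against. Leaving out either PP121 replicate in the fit without the block left 1 PP121 sample, so the counts of calls from such fits are not read here. The 6 progenitor markers moved the other way, with 2024 and 2405 CPM in controls and 1886 and 1864 in PP121 samples, and the mesenchymal markers were at 281 and 365 against 348 and 423 CPM. Their part in the result was not tested. Nor was that of the 372 and 196 control nuclei left out by the annotation, which had 1.25 and 1.32 CPM of CDC45.

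The other classes showed less. Over all nuclei the replicate block gave 1 call, CDC45 at 1.16 ± 0.21 (0.709% of all genes), and over both progenitor classes also CDC45, at 1.18 ± 0.27 (1.16%). MKI67 over both progenitor classes was at 0.73 ± 0.21 (adjusted p = 0.0763), TOP2A at 0.38, and CCND1, CCND2, PCNA, MCM2, E2F1 and CDK1 between -0.01 and 0.46. There, 27 members lay above the controls without overlap (15.7% of all genes). In Progenitor 1 it called 6 of 52 higher (2.9%), namely RRM2 (1.55 ± 0.38), BUB1B (1.39 ± 0.42), CDC25C (1.08 ± 0.29), MKI67 (1.06 ± 0.34), BRIP1 (1.05 ± 0.30) and TOP2A (0.73 ± 0.23). CCND1, CCND2, PCNA, MCM2 and CDK1 were between -0.22 and 0.57 and not called, and E2F1 did not pass the count filter. MKI67 in Progenitor 1 was at 8.59 and 4.26 CPM in controls and 9.54 and 19.7 CPM in PP121 samples, and the median member differed by 0.03 on day 42 and 0.56 on day 38. Without overlap, 15 of 52 members lay above the controls (16.8% of all genes).

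In neurons the replicate block called 7 of 55 members higher (7.98% of all genes) and 4 lower (6.86%). RRM2 rose by 1.49 ± 0.22 (adjusted p = 3.25e-05) from 2.64 and 5.14 CPM to 6.89 and 14.6 CPM, DTL by 1.21 ± 0.28, BUB1B by 1.18 ± 0.26, NDC80 by 1.07 ± 0.27 and the checkpoint kinase TTK by 0.90 ± 0.28. BRIP1 (0.59 ± 0.19) and TOP2A (0.43 ± 0.14) rose less, and MKI67 (0.59 ± 0.24, adjusted p = 0.105) was not called, nor were CCND1, CCND2, PCNA, MCM2, E2F1 and CDK1, between -0.32 and 0.78. HMGB2 fell by 0.58 ± 0.12 (adjusted p = 0.000928), from 65.3 and 54.8 CPM to 39.1 and 39.4 CPM, ECT2 by 0.53 ± 0.13, MCM6 by 0.56 ± 0.17 and POLA1 by 0.36 ± 0.09. The share called lower was near that of all genes. Without overlap 14 of 55 lay above (19.7% of all genes) and 8 below (25.4%). DESeq2 with the replicate block called 0 members in neurons and in Progenitor 1. The PP121 change was not shown to differ between progenitors and neurons, with 0 members called by edgeR (0.0% of all genes), 8 at an unadjusted p under 0.05 (9.74% of all genes) and 0 by DESeq2.

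Of 144 further pathway genes, 0 were called without the block. With it, CDKN1A, the p53-induced inhibitor of cyclin-dependent kinases, was called lower in neurons, both progenitor classes together, Progenitor 1 and Progenitor 2, though not over all nuclei. In neurons it was at 16.4 and 9.65 CPM in controls and 8.26 and 2.86 CPM in PP121 samples, without overlap, and fell by 1.20 ± 0.21 (adjusted p = 0.00021). In Progenitor 2 it was at 26.3 and 9.44 against 14.1 and 3.55 CPM and fell by 1.03 ± 0.23 (adjusted p = 0.0012), but there the groups overlapped and both day 42 values lay above both day 38 values. In Progenitor 2 another 6 of 137 rose, a share like the 4.52% of all genes, among them MYBL2 (0.86), RFC3 of the clamp loader (0.64) and the helicase BLM (0.57). In neurons 3 of 135 rose and 14 fell, beside 7.98% and 6.86% of all genes, with EXO1 at 1.35, CDKN2D at -0.83 and CCND3 at -0.64.

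Shares of nuclei with mitotic transcripts were compared with an exact permutation test over samples, two-sided, whose smallest p with 2 against 2 samples is 0.333. In Progenitor 2, 12.4% and 12.7% of thinned control nuclei and 15.8% and 19.6% of PP121 nuclei had UMIs of at least 3 mitotic members (exact permutation p = 0.333). The unthinned shares were 37.1% and 36.6% against 35.0% and 40.7% and did overlap. In Progenitor 1 the shares were 10.8% and 7.96% against 10.1% and 10.6%, and in neurons 2.79% and 2.57% against 1.83% and 3.70%, both overlapping. Nuclei with at least 3 replication members made up 12.2% and 14.6% of Progenitor 2 in controls and 16.3% and 18.8% in PP121 samples. Nuclei called S moved the other way, at 35.2% and 34.0% against 32.5% and 31.9% in Progenitor 2 and at 35.2% and 37.4% against 25.6% and 22.8% in neurons, without overlap in either class (exact permutation p = 0.333 in each). Nuclei called G2M in Progenitor 2 made up 14.1% and 15.7% against 20.3% and 25.3%. Of the 18 shares compared in this way, none could pass the threshold.

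The days were compared over the same 4 samples, 2 on each. Without the treatment in the fit edgeR called 0 members in neurons and 0 in progenitors (0.0% of all genes in each). At an unadjusted p under 0.05 there were 11 of 55 and 7 of 56 (7.41% and 11.1% of all genes). DESeq2 called 1 (CDC25C) and 0, given without a share of all genes. With the treatment as a covariate 14 of 55 members were lower in neurons at day 42 than at day 38, where 5.81% of all genes were called lower. MKI67 was at 2.80 and 3.8 CPM at day 42 and 6.22 and 9.71 CPM at day 38, a change of -1.32 ± 0.24 (adjusted p = 0.000462), and CDC45 changed by -1.85 ± 0.39 and CDC25C by -1.32 ± 0.17. TOP2A changed by -0.89 ± 0.14, and E2F1 (-1.23 ± 0.40, adjusted p = 0.0507) and CCND2 (-0.40 ± 0.13, adjusted p = 0.0541) just missed the threshold. In progenitors 0 of 56 were called (1.58% of all genes), with 16 at an unadjusted p under 0.05 (14.6% of all genes). Leaving out control replicate 2 in the fit without the covariate left 1 sample at day 38, so the calls of that fit are not read here. The day is also the replicate number, so a difference between days and one between differentiations cannot be told apart.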

How the data were processed

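Nuclei of 2 control and 2 PP121 samples were sequenced with 10x 3' v3.1 chemistry. The authors deposited raw UMI counts per gene and nucleus, together with counts of UMIs and features, the percent of mitochondrial and ribosomal UMIs and Seurat phase scores per nucleus. Per the labels, Cell Ranger and Seurat 4.0.4 were used on GRCh38, whereas the study's methods name kallisto and bustools. Whether introns were counted, and the strand setting, are not given in the sources used here, so reads of overlapping genes may be mixed. The classes and phases are the authors' deposited annotation, and nuclei marked as filtered were left out. The authors regressed the phase scores before clustering. The date of each sample (day 38 or 42) is that of the deposited annotation.

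Counts were summed per sample and class, or per sample, class and phase. Genes were filtered with filterByExpr, scaled by TMM and tested with the quasi-likelihood test of edgeR 4.0.16 in R 4.3.3, and DESeq2 1.42.0 was the alternative. P-values were adjusted by Benjamini and Hochberg over all genes tested, with a threshold of 0.05, and errors of log2 changes are SE. Treatment was tested without and with the replicate block. Same-numbered samples were dated the same day, and their deviations from the group means correlated at 0.28 to 0.53 over all genes. The number was therefore taken to pair the samples. Over the members alone the correlation was only 0.13 in Progenitor 1 and 0.28 to 0.53 in the other sets of nuclei. Nuclei were thinned to 2000 UMIs for shares, with Python 3.11.15. No doublet caller was run. Class ratios used a pseudocount of 0.5 CPM. On simulated counts for the progenitor comparison of treatments, 82% of 100 genes changed 2-fold were recovered over 20298 genes, and 79% with the block over 20259 genes. On those for G2M against G1 nuclei it was 98% over 17357 genes. The simulated spread was below the common dispersion of 0.039 of the progenitor fit without the block, and no difference between days was simulated. Changed genes were drawn only from those with many counts. The recovered shares therefore do not hold for members with few UMIs, and recovery in these data can be lower.

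Members, lists and tests were chosen with earlier results of these data known. Genes were named by a rule, namely called members (at most the 10 with the largest changes), 8 members in each treatment comparison (MKI67, TOP2A, CCND1, CCND2, PCNA, MCM2, E2F1 and CDK1), the 11 unscored members by phase, and the members with the highest and lowest ratio of Progenitor 2 to neurons in each role list.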

Additional observations from a re-analysis of the deposited data

Results flagged for a closer look

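The change from G1 to G2M nuclei differed between the 2 progenitor classes for 4 genes outside the phase lists. It was larger in Progenitor 2 by 2.19 for CCNA2, 2.39 for CCNB1, 2.08 for PLK1 and 4.18 for BUB1B on the log2 scale. The test was an interaction term in edgeR, which called 1.17% of all genes higher. This fit was added after seeing the data. Both classes are clusters of the same nuclei, so the test is not independent of how the classes were made.

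Nuclei that the annotation marks as filtered, which no comparison used, also held cycle transcripts. These nuclei were shallow, with sample medians of 666 to 822.5 UMIs against 6289 to 7071 in annotated nuclei. Most of them lay outside the study's quality limits, at 3876 of 4248 and 1620 of 1816 for the controls and all for PP121. Their 27 mitotic genes without HMGB2 summed to 513 and 796 CPM in control replicates 1 and 2 and 702 and 1083 CPM in PP121 replicates 1 and 2. Their 25 replication genes without POLA1 summed to 340 and 343 CPM in controls and 400.2 and 517 CPM in PP121 samples. The control values here come with 372 and 196 nuclei inside the study's quality limits, and the PP121 values with 0 and 0. Without those nuclei the control sums were 532 and 866 CPM for the mitotic genes and 350 and 358 CPM for the replication genes. The cause was not tested.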

How the results depend on the processing

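With 2 samples a group, counts of called members depended on the fit. Leaving out 1 sample in a treatment or day comparison left 1 sample in a group. Shares of all genes called are not set beside the counts in this section. The counts therefore show how far calls depended on the fit, and not whether members were called more often than other genes. For PP121 in all nuclei the count of 0 became 1 with the replicate block, 3 with DESeq2 and the block, and 1 with the block without the 5% of nuclei with most UMIs (leaving out 1 sample, 0 to 0). In neurons 0 became 11 with the block, 9 with the block without those nuclei and 4 with the block and classes split by markers (0 to 5). In progenitors 0 became 1 without a count filter, 1 with the block, 3 with the block without those nuclei and 9 with the block and the split (0 to 1). In Progenitor 1 it became 6 with the block and 2 with the block without those nuclei (0 to 7). In Progenitor 2 it became 9 without a filter, 1 with DESeq2, 15 with the block, 2 with DESeq2 and the block, and 10 with the block without those nuclei (0 to 13). The difference between progenitors and neurons went from 0 to 2 without a filter (0 to 0). For the day, neurons went from 0 to 1 without a filter, 1 with DESeq2 and 14 with the treatment as covariate (0 to 4), and progenitors ranged from 0 to 15.

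For the unscored members, a minimum of 10 counts in every library tested fewer genes. G2M progenitors went from 7 to 2 under it and 4 without the sample block (4 to 6 without 1 sample), and S progenitors from 6 to 2, to 3 with DESeq2 and to 3 without the block (3 to 4). G2M neurons went from 6 to 2 (5 to 6), and S neurons from 2 to 0, to 1 with DESeq2, and to 0 without the block or without the 5% of nuclei with most UMIs (0 to 2). Progenitor 1 went in G2M from 2 to 0, to 0 with DESeq2 and to 1 without the block (2 to 2), with S at 0 to 0. Progenitor 2 went in G2M from 6 to 2 (4 to 5) and in S from 6 to 2 (4 to 6). The difference between progenitors and neurons went from 0 to 1 without a filter, and that between progenitor classes from 4 to 0 under the minimum (2 to 3). The cause was not tested.

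The median log2 ratio of Progenitor 2 to neurons moved from 1.72 to 1.90 for mitotic genes without the 5% of nuclei with most UMIs (1.62 to 1.76 without 1 sample) and ranged from 0.97 to 1.11 for replication genes. Progenitor 1 to neurons ranged from 0.58 to 0.87 and 0.19 to 0.30. Progenitor 2 to Progenitor 1 moved from 0.96 to 0.68 with mean CPM per nucleus (0.88 to 1.1), and replication genes ranged from 0.58 to 0.88.

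Differences in shares, PP121 minus control in percentage points, were as follows. Mitotic neurons went from 0.0822 to -0.0306 at 4000 UMIs, -2.59 without thinning, -1.06 with at least 2 members and -0.208 without the 5% of nuclei with most UMIs (-0.852 to 1.02). Mitotic progenitors went from 3.44 to -1.13 without thinning (1.73 to 5.15), and mesenchymal nuclei from 2.40 to -2.30 with at least 2 members (-2.72 to 7.52). Replication neurons went from -0.331 to 0.402 with at least 5 members and 0.364 with the split (-1.01 to 0.349), progenitors ranged from 2.09 to 5.03 and mesenchymal nuclei from -3.09 to 6.44. Called S ranged from -13.5 to -10.8 in neurons and -5.08 to 2.40 in progenitors, and called G2M from -1.73 to 3.21 and 4.15 to 9.45. In Progenitor 1 the mitotic share was -5.55 without thinning (-0.435 to 2.43 without 1 sample), the replication share -0.971 without thinning, called S 0.778 at 5000 UMIs or more (-8.41 to 5.43), and called G2M -0.964 to 8.67 without 1 sample.

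Single genes changed sign in few settings, and an estimate within 1 SE of 0 has no direction. Leaving out 1 sample at a time, the neuron estimates of PP121 ranged from -0.15 to 1.26 for BRIP1, -0.042 to 0.98 for TOP2A, -0.20 to 1.32 for MKI67, -0.66 to 0.039 for CCND2 and -0.34 to 1.84 for E2F1. The progenitor ones ranged from -0.070 to 0.84 for TOP2A and from -0.056 to 0.97 for E2F1. CDK1 in Progenitor 2 was -0.017 (-0.013 with the block) without the 5% of nuclei with most UMIs. The difference between progenitors and neurons ranged from -0.49 to 0.79 for MKI67 and -0.44 to 0.36 for TOP2A, and -0.49 to 0.58 for CDK1. By day, MKI67 in progenitors ranged from -0.89 to 0.24, and CCND2 in S progenitors from -0.14 to 0.093. The replicate block changed no other call than those given. Alternatives that join the block with another choice, and the fits within Progenitor 1 or 2 by phase, were chosen after seeing the data.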
